A study of Mus musculus with 16 samples.

Results

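The transcription factors that commit blood progenitors to the T cell lineage were followed as a group of 9 genes across T cell acute lymphoblastic leukaemia (T-ALL) of 16 mice. The genes were Gata3, Bcl11b, Tcf7, Lef1, Runx1, Runx3, Ikzf1, Satb1 and Tox, chosen by name out of 41214 genes counted. Each matched 1 Ensembl identifier, and all 9 passed the filter on low counts in every comparison.

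In the thymus, Notch signalling switches on Tcf7 and Gata3 in incoming progenitors. Together with Runx factors, they switch on Bcl11b, which closes off other fates and completes commitment. Ikzf1, Satb1, Lef1 and Tox act on survival, receptor selection, genome folding and the choice between the CD4 and CD8 lineages. In human T-ALL several of these genes, among them RUNX1, BCL11B, LEF1, GATA3 and IKZF1, are known sites of mutation or deletion.

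Each library came from 1 C57Bl6 mouse with T-ALL, and the 16 libraries formed 8 groups of 2 mice. Of these, 6 groups carried leukaemia induced by ICN, the usual short name of the intracellular, active part of Notch. Among the ICN leukaemias, 3 groups were p53 ko and 3 were p53 wt, and within each p53 status the groups were Miz1 deltaPOZ with a Lck suffix, Miz1 deltaPOZ with a Vav suffix, and Miz1 wt. The remaining 2 groups had T-ALL without ICN induction, both p53 ko, one Miz1 deltaPOZ with a Vav suffix and one Miz1 wt. Miz1 is the zinc finger protein encoded by Zbtb17, and deltaPOZ is a mutant form that lacks its POZ domain. The Lck and Vav suffixes stand in the sample titles and are not explained there. The sources used here give no organ, age, sex or batch, and do not say how ICN was introduced. Each leukaemia arose in its own mouse. A p-value here sets a difference between groups against the spread between mice and their tumours, estimated over the 8 groups together.

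The values are counts per gene, and the libraries held 36463524 to 68523196 of them. Levels are given as CPM (counts scaled to a common library total) after TMM scaling. Trp53, the gene of p53, reached at most 30.6 CPM in the 10 p53-ko mice, and was at least 70.2 CPM in the 6 p53-wt mice, which goes with the labels. Zbtb17 counts cannot check the deltaPOZ label, since counts over a whole gene do not show the loss of 1 domain. The 8 T cell identity markers (Cd3d, Cd3e, Cd3g, Thy1, Lck, Cd2, Cd5 and Ptcra) summed to 1878 to 2679 CPM in the 12 ICN libraries and to 2022 to 3396 CPM in the 4 without ICN, and none was at 0 in any library. Their medians were 2143 CPM with ICN and 3238 CPM without it, and 3 of the 4 libraries without ICN lay above every ICN library. Markers of other cells were also present. The 12 erythroid markers summed to 3302 to 11245 CPM with ICN and to 359 to 1063 CPM without it. Transferrin receptor Tfrc, which dividing T cells also make, is on that list. The 12 neutrophil markers summed to 54.5 to 9532 CPM with ICN and to 1.50 to 2.72 CPM without it. The 12 endothelial and stromal markers went the other way, at 74.5 to 180 CPM with ICN and 201 to 311 CPM without it. Within that list genes differed, since in p53-ko mice 2 were called higher with ICN and 2 lower by edgeR. In bulk RNA, fewer cells of a type and less RNA per cell cannot be told apart.

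**Figure D1:**
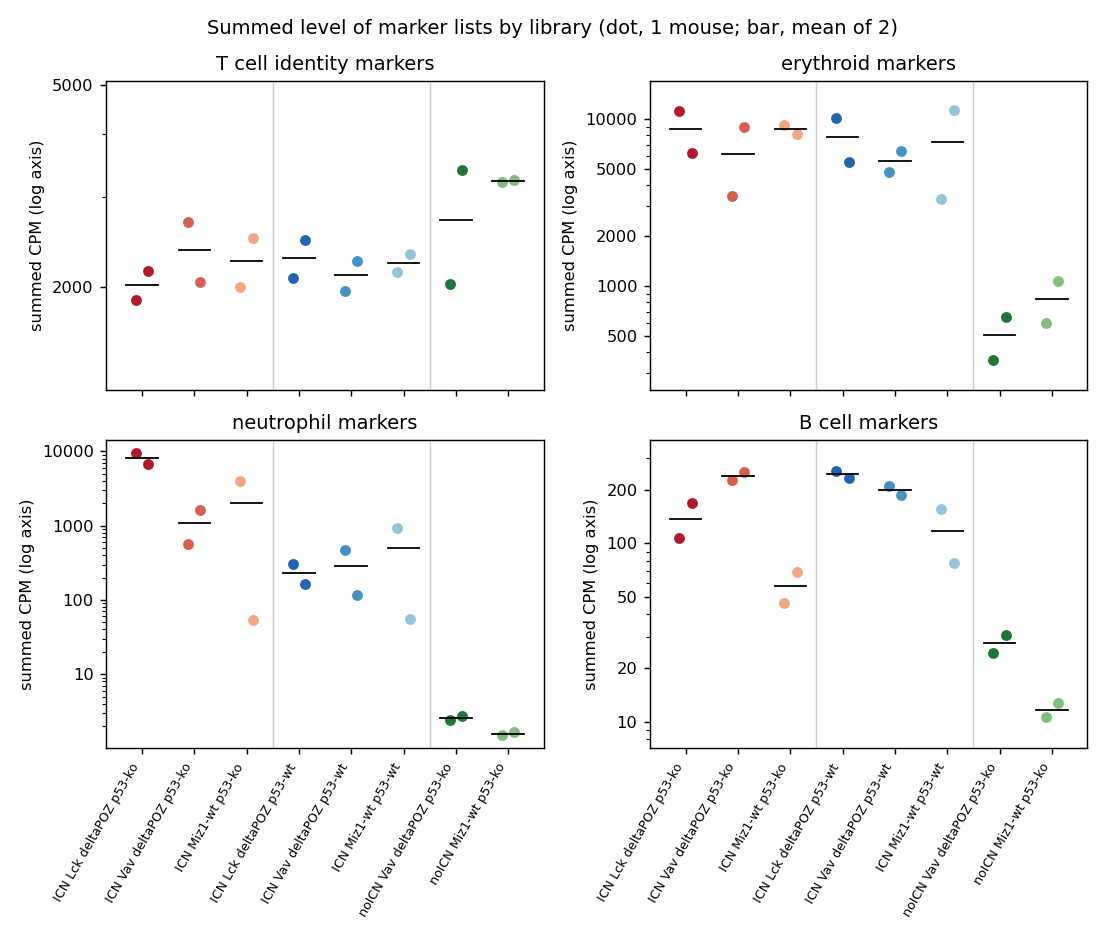
Summed CPM (log axis) of the T cell identity, erythroid, neutrophil and B cell marker lists in each library, where a dot is 1 mouse and a bar the mean of 2. T cell sums of 3 of the 4 libraries without ICN lie above all 12 ICN libraries, while erythroid, neutrophil and B cell sums are higher in every ICN library than in every library without ICN.

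Positions are on the GRCm38 build. Gata3 (ENSMUSG00000015619) lies at chr2:9857078-9890034 on the minus strand, and Bcl11b (ENSMUSG00000048251) at chr12:107910403-108003602 on the minus strand. The paired TCF/LEF factors are Tcf7 (ENSMUSG00000000782, chr11:52252371-52283014, minus strand) and Lef1 (ENSMUSG00000027985, chr3:131110471-131224356, plus strand). The paired RUNX factors are Runx1 (ENSMUSG00000022952, chr16:92601466-92826149, minus strand) and Runx3 (ENSMUSG00000070691, chr4:135120652-135177990, plus strand). Ikzf1 (ENSMUSG00000018654) lies at chr11:11685003-11772926 on the plus strand, Satb1 (ENSMUSG00000023927) at chr17:51736187-51833290 on the minus strand, and Tox (ENSMUSG00000041272) at chr4:6686353-6991557 on the minus strand. Exons of Gata3, Lef1, Runx1, Satb1 and Tox overlap exons of another gene on the opposite strand, such as the antisense transcripts Gm13256 at Gata3 and Gm26626 at Runx1. On the same strand, exons of Gata3 also overlap those of the protein-coding gene 9230102O04Rik, and exons of Satb1 those of Gm36931. The strand setting of the counting is not given in the sources used here, so reads of the opposite-strand overlaps cannot be told apart. Same-strand overlaps do not depend on that setting, and their reads cannot be told apart here either.

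Upstream sequence is shown for the RUNX pair, of which Runx1 was called between leukaemias with and without ICN and Runx3 was not, and for the Lef1 start that held the most TCF/LEF letters. The runs are the longest stretches that no annotated exon covers in the 250 bases before RefSeq starts (GRCm38.p6). They read 5′ to 3′ on the gene's own strand, and need not reach the start. Runx1 has a distal start, used in blood stem cells and T cells, and a proximal start. Their runs are chr16:92826150-92826324 and chr16:92697330-92697579, both on the minus strand. The Runx3 run is chr4:135120448-135120644 and the Lef1 run chr3:131156044-131156293, both on the plus strand. Runx3 has another start, not shown, whose window held none of the letters searched. Capitals mark core letters on either strand. The cores searched were TGTGGT for RUNX factors and AGATAA for GATA factors. The letters CTTTGA were searched for TCF and LEF factors. RBPJ, the DNA-binding partner of Notch, was searched as TGGGAA.
Runx1 distal start: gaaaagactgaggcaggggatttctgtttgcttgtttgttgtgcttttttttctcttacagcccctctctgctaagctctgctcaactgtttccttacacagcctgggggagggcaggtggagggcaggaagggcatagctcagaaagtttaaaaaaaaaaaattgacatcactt
Runx1 proximal start: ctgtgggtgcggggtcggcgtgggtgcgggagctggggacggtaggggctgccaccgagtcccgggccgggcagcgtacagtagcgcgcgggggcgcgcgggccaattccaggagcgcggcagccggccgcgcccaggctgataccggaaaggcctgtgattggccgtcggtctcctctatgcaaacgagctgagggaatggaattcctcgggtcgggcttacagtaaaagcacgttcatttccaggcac
Runx3 distal start: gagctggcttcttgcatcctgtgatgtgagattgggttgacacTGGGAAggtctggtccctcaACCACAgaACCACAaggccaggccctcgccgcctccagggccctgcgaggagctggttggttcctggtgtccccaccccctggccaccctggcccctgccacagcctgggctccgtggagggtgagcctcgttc
Lef1 internal start: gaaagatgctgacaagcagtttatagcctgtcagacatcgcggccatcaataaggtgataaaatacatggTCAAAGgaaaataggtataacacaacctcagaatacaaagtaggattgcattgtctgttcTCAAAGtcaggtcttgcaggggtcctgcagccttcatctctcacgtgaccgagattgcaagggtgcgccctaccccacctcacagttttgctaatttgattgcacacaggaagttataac
The run of the Runx3 distal start held 2 RUNX cores, both as the reverse complement ACCACA, and 1 RBPJ core. The Lef1 run held 2 TCF/LEF cores as the reverse complement TCAAAG, and neither Runx1 run held any of these letters. Over 27025 mouse promoters, a window of 250 bases held the RUNX core in 14.2%, the GATA core in 10.3%, the TCF/LEF core in 14%, and the RBPJ core in 21.5%. The Runx1 distal run had only 175 bases and the Runx3 run 197, but the full windows of the starts shown held the same matches as their runs. A match describes letters only, and counts over a whole gene do not tell which start was used. RefSeq starts were matched for 8 of the 9 genes, 19 starts in all.

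All 9 factors were expressed in all 16 libraries. They kept to the same sets of places in every library, while the order within a set changed. Per kilobase of annotated exon, Tcf7 and Ikzf1 took the first 2 places in every library. Tcf7 lay at 145 to 401 CPM per kb and Ikzf1 at 92.9 to 219 CPM per kb. Satb1, Bcl11b, Lef1 and Runx1 filled places 3 to 6, with median levels of 37.4, 33.5, 33.4 and 9.18 CPM per kb. Runx3, Tox and Gata3 filled places 7 to 9 in every library, with medians of 4.27, 3.89 and 3.36 CPM per kb. In the 4 libraries without ICN, Gata3 had 9.53 to 15.1 CPM per kb, above Runx3 (0.435 to 6.75) and Tox (1.26 to 4.68). Length here is the union of all annotated exons, which for Satb1 reaches 19027 bases and lowers its level per kb.

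**Figure D2:**
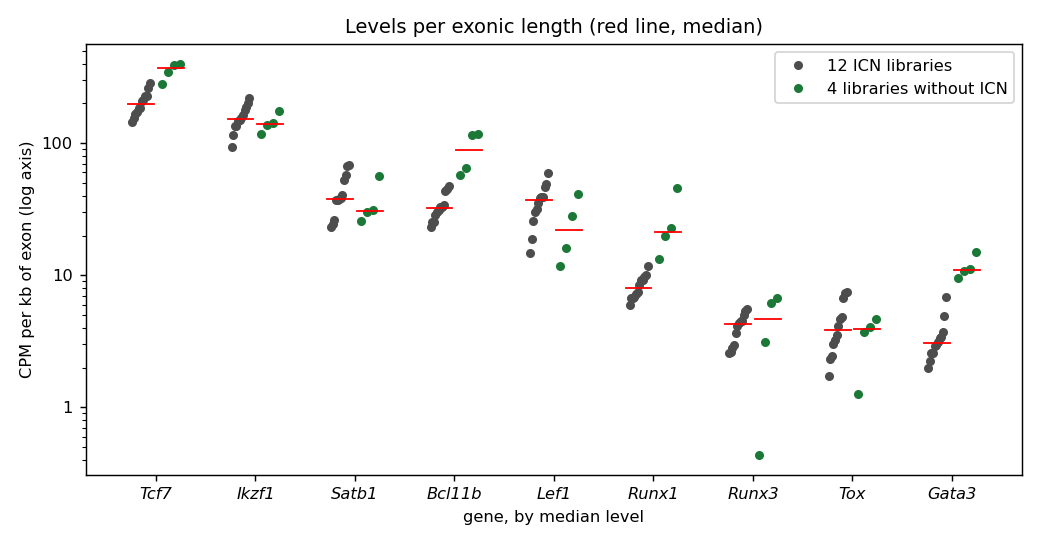
Level of each factor per kilobase of annotated exon (CPM per kb, log axis) in 12 ICN libraries and 4 libraries without ICN, where a dot is 1 mouse and a red line the median. Tcf7 and Ikzf1 lead in every library, Runx3, Tox and Gata3 come last, and the dots of Gata3, Bcl11b and Runx1 without ICN lie above all 12 ICN dots.

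The factors varied by different amounts between tumours. Over all 16 libraries, Runx3 spanned 15.5-fold between its lowest and highest library, Runx1 7.76-fold and Gata3 7.57-fold. The lowest Runx3 library held only 95 counts of it. Tox, Lef1 and Bcl11b spanned 5.93-, 5.09- and 5.05-fold. Satb1, Tcf7 and Ikzf1 were steadier, at 2.94-, 2.76- and 2.36-fold. This order did not hold within the 12 ICN libraries. There Tox and Lef1 spanned the most, at 4.32- and 4.08-fold, then Gata3 (3.45), Satb1 (2.94) and Ikzf1 (2.36). Runx3, Bcl11b, Runx1 and Tcf7 spanned the least, at 2.14-, 2.03-, 1.97- and 1.96-fold. Among 8876 protein-coding genes with a mean log2 CPM of at least 3, 90.9% had a smaller standard deviation over the 16 libraries than Gata3, and 40.0% had a smaller one than Ikzf1.

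**Figure D3:**
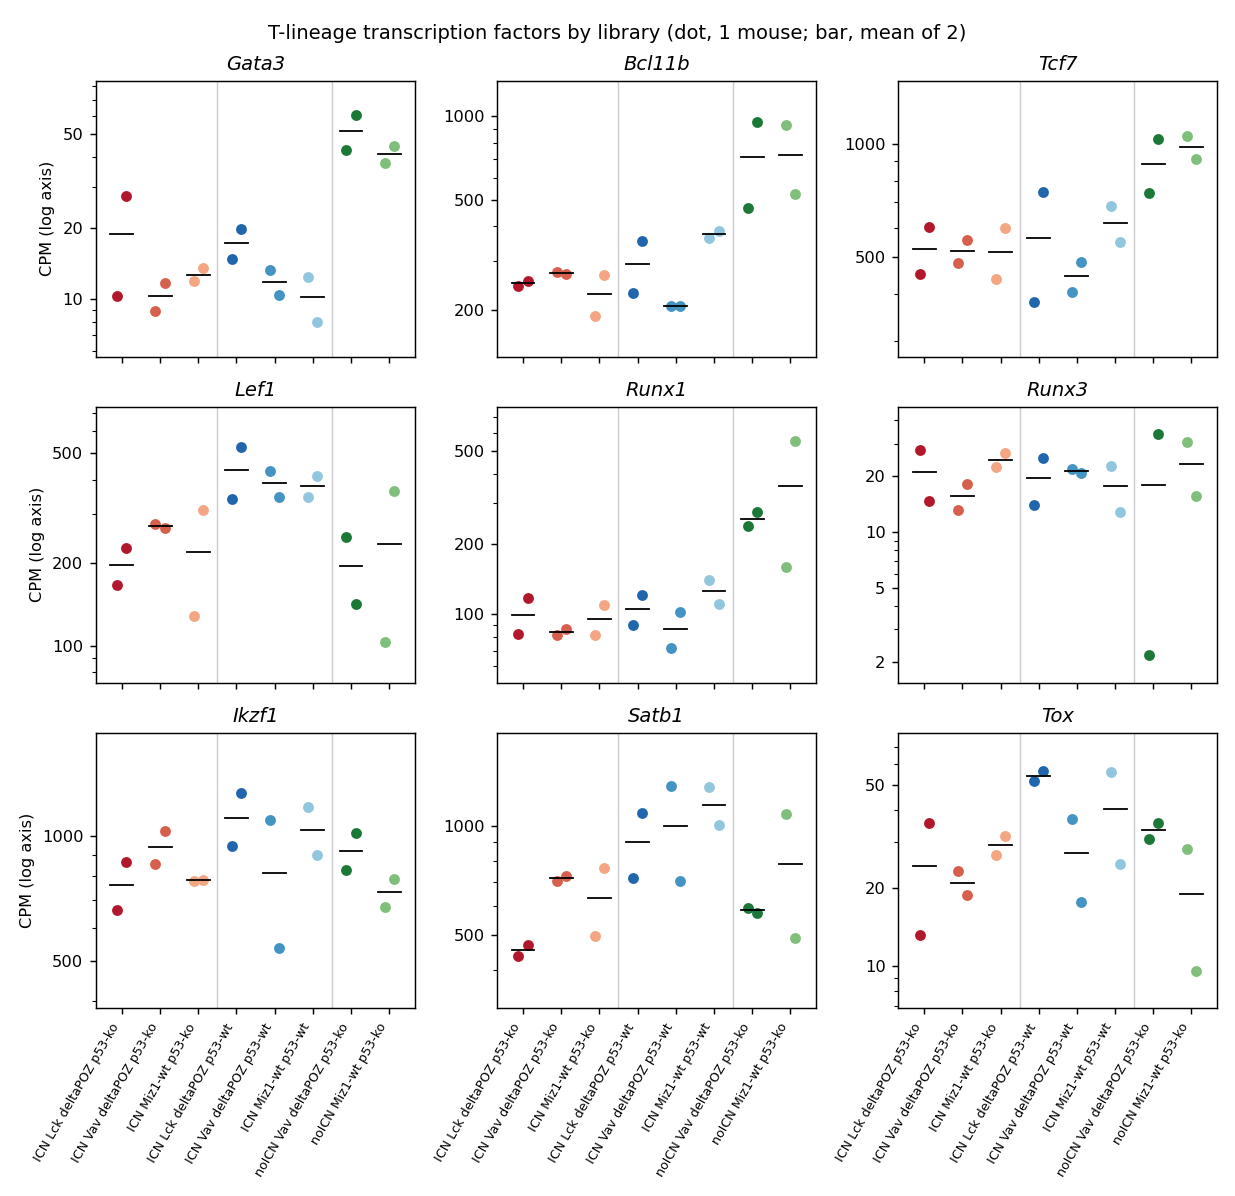
Level of each factor (CPM, log axis) in every library by group, with ICN p53-ko groups on the left, ICN p53-wt groups in the middle and groups without ICN on the right, where a dot is 1 mouse and a bar the mean of 2. Gata3, Bcl11b and Runx1 are higher in all 4 libraries without ICN than in all 12 ICN libraries, and Lef1 is lower in the 6 ICN p53-ko libraries than in the 6 ICN p53-wt libraries.

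The widest difference among the factors was between T-ALL with and without ICN. This was compared in p53-ko mice, with 4 ICN libraries (Miz1 wt and deltaPOZ Vav) against the 4 libraries without ICN. Gata3, Runx1, Bcl11b and Tcf7 fell in ICN leukaemias, by 4.03-, 3.38-, 2.89- and 1.80-fold, while Lef1, Runx3, Ikzf1, Satb1 and Tox did not pass the test. The test was edgeR's quasi-likelihood test with Benjamini-Hochberg adjustment over 17470 genes and a threshold of 0.05. Of 9 factors, 4 were called lower and 0 higher, against 11.1% of all genes called lower and 12.9% higher (24% in all). The factors were chosen with earlier results of these data known, so these shares are a description and not an independent test. The same 4 had ICN libraries that did not overlap those without ICN, and all genes did so with lower ICN levels in 9.56%. The median log2 fold change was -0.06 over the 9 factors and -0.02 over all genes.

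Gata3, the zinc finger factor needed for T cell specification and CD4 T cells, had the largest fold. It had 8.91 and 11.7 CPM in ICN deltaPOZ Vav p53-ko mice and the Miz1-wt mice of that background had 11.9 and 13.5 CPM. The mice without ICN had 42.8 and 60.1 CPM with deltaPOZ Vav and 37.9 and 44.4 CPM with Miz1 wt. Every library without ICN thus lay above every ICN library of the comparison (log2 fold change -2.01, SE 0.31, adjusted p = 0.00125). The ICN libraries outside this comparison were low as well, at 10.2 and 27.4 CPM in the Lck p53-ko group and at 7.95 to 19.7 CPM in the 6 p53-wt mice. Ordered by group mean, both groups without ICN came first and their ranges overlapped each other. The 2 Lck groups followed at 18.8 and 17.3 CPM, and the other 4 ICN groups lay between 10.2 and 12.7 CPM with overlapping neighbours.

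Bcl11b, the zinc finger repressor that completes commitment, had 275 and 268 CPM in ICN deltaPOZ Vav p53-ko mice and the Miz1-wt mice of that background had 189.6 and 267 CPM. Without ICN it had 466 and 957 CPM with deltaPOZ Vav and 928 and 523 CPM with Miz1 wt. The lowest library without ICN lay above the highest ICN library, although both pairs without ICN were wide (log2 fold change -1.53, SE 0.26, adjusted p = 0.00201). The Lck p53-ko group stayed near the other ICN p53-ko groups, at 244 and 255 CPM. Among ICN groups the means ran between 374 CPM (Miz1 wt, p53 wt) and 207 CPM (deltaPOZ Vav, p53 wt).

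Tcf7 encodes TCF1, the HMG-box factor that opens T-lineage chromatin. It had 482 and 556 CPM in ICN deltaPOZ Vav p53-ko mice and the matching Miz1-wt mice had 438 and 597 CPM. Without ICN it had 739.9 and 1032 CPM with deltaPOZ Vav and 1052 and 912 CPM with Miz1 wt. These libraries did not overlap, and the log2 fold change was -0.85 (SE 0.23, adjusted p = 0.0204). This call rested on single mice: it was lost without replicate 1 of ICN Miz1-wt p53-ko (adjusted p = 0.0742), replicate 1 of ICN deltaPOZ Vav p53-ko (0.0825) or replicate 2 of deltaPOZ Vav without ICN (0.071), by edgeR over fits that left out 1 library. Set against all 12 ICN libraries, the groups touched, since 1 ICN Lck p53-wt mouse had 746 CPM.

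Lef1, the other TCF/LEF factor of T cell precursors, did not go with Tcf7. It had 277 and 267 CPM in ICN deltaPOZ Vav p53-ko mice and the matching Miz1-wt mice had 129 and 309.7 CPM. Without ICN it had 248 and 141 CPM with deltaPOZ Vav and 103 and 363 CPM with Miz1 wt. The lowest and the highest of these 8 libraries were the 2 mice of 1 group, Miz1 wt without ICN. The log2 fold change was 0.20 (95% interval -0.64 to 1.03, adjusted p = 0.748).

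Runx1, a RUNX factor of stem cells and of early T cells, had 81.5 and 86.2 CPM in ICN deltaPOZ Vav p53-ko mice and the matching Miz1-wt mice had 81.5 and 110.0 CPM. Without ICN it had 240.3 and 275 CPM with deltaPOZ Vav and 159 and 554 CPM with Miz1 wt. All 4 libraries without ICN lay above all ICN libraries, and the highest stood apart from the other 3 (log2 fold change -1.76, SE 0.33, adjusted p = 0.00343). Without that mouse the log2 fold change was -1.22, and Runx1 was still called.

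Runx3, the RUNX factor of CD8 T cells, had 13.2 and 18.2 CPM in ICN deltaPOZ Vav p53-ko mice and the matching Miz1-wt mice had 22.5 and 26.6 CPM. Without ICN it had 2.17 and 33.8 CPM with deltaPOZ Vav, and 30.7 and 15.8 CPM with Miz1 wt. The lowest and the highest Runx3 level of all 16 libraries thus came from the same group, the lowest resting on 95 counts. The log2 fold change was -0.06 with a wide 95% interval of -1.38 to 1.26 (adjusted p = 0.959). Leaving out the highest of these mice turned it to 1.47, which edgeR then called (adjusted p = 0.0248).

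The other 3 factors had overlapping libraries. Ikzf1 encodes Ikaros, a chromatin-bound zinc finger factor that restrains Notch targets in mouse thymocytes. It had 779.8 to 1024 CPM in the 4 ICN libraries and 674 to 1012 CPM in the 4 without ICN (log2 fold change 0.06, 95% interval -0.42 to 0.55, adjusted p = 0.865). Satb1, an organizer of chromatin loops in thymocytes, had 496 to 767 CPM with ICN and 491 to 1079 CPM without it (log2 fold change -0.01, interval -0.61 to 0.59, adjusted p = 0.988). Tox, an HMG-box factor of CD4 T cell development, had 18.7 to 31.7 CPM with ICN and 9.57 to 35.6 CPM without it (log2 fold change -0.02, interval -0.92 to 0.88, adjusted p = 0.982). For Tox the 2 extremes were again both mice without ICN, and the fits do not show that levels were alike, since each interval spans a change in either direction.

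**Figure D4:**
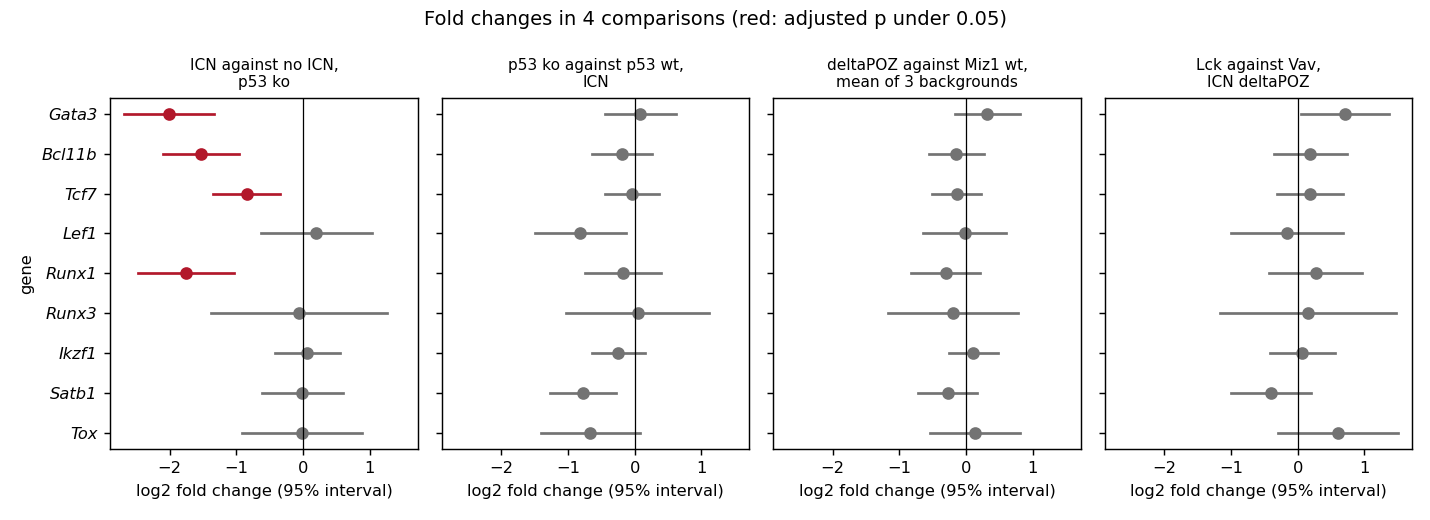
Log2 fold change of each factor with its 95% interval in 4 comparisons, each tested group against its control as titled, with factors past an adjusted p of 0.05 in red. Only Gata3, Bcl11b, Tcf7 and Runx1 in the comparison of ICN with no ICN are red, at -2.01, -1.53, -0.85 and -1.76.

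Over all 12 ICN libraries and the 4 without ICN, 3 factors (Gata3, Bcl11b and Runx1) did not overlap, each lower with ICN, against 5.74% of all genes in that direction and 8.25% in the other. The 6 p53-wt libraries all carry ICN, so ICN and p53 status are partly mixed in this count. The marker sums moved with the same split, as given above. The 4 factors remained lower when libraries were scaled to the T cell identity markers, a step chosen after seeing the data. The log2 fold changes were then -2.30 for Gata3, -1.86 for Bcl11b, -1.17 for Tcf7 and -2.03 for Runx1, while the median of all genes moved to -0.36. The markers used for this scaling did not move as one, since Cd2 and Cd5 were called higher and Thy1 and Lck lower with ICN. The part of other cells in these differences was not tested.

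Ratios between 2 factors of 1 library do not depend on library scaling. They were chosen after the levels had been seen, so they are given without a test. Satb1 over Bcl11b (per kb) was 0.766 to 2.66 in the 12 ICN libraries, with a median of 1.19, and 0.256 to 0.542 in the 4 libraries without ICN, with a median of 0.447. These ranges did not overlap, and the divisor Bcl11b was itself called lower with ICN in p53-ko mice. Which of the pair was higher depends on the length used, since in CPM without length Satb1 exceeded Bcl11b in 2 of the 4 libraries without ICN. Tcf7 over Lef1 was 3.15 to 11.4 with ICN and 8.42 to 34.2 without. Runx1 over Runx3 was 1.24 to 3.58 with ICN and 2.15 to 46.0 without. Both of these ranges overlapped, and the libraries without ICN differed widely within each group. In the deltaPOZ Vav pair without ICN, Runx1 over Runx3 was 46.0 in one mouse and 3.38 in the other. In the Miz1-wt pair Tcf7 over Lef1 was 34.2 and 8.42. Bcl11b over Tcf7 was 0.137 to 0.226 with ICN and 0.186 to 0.300 without. Gata3 over Tcf7 was 0.0095 to 0.0300 with ICN and 0.0238 to 0.0385 without, so these ratios overlapped as well.

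**Figure D5:**
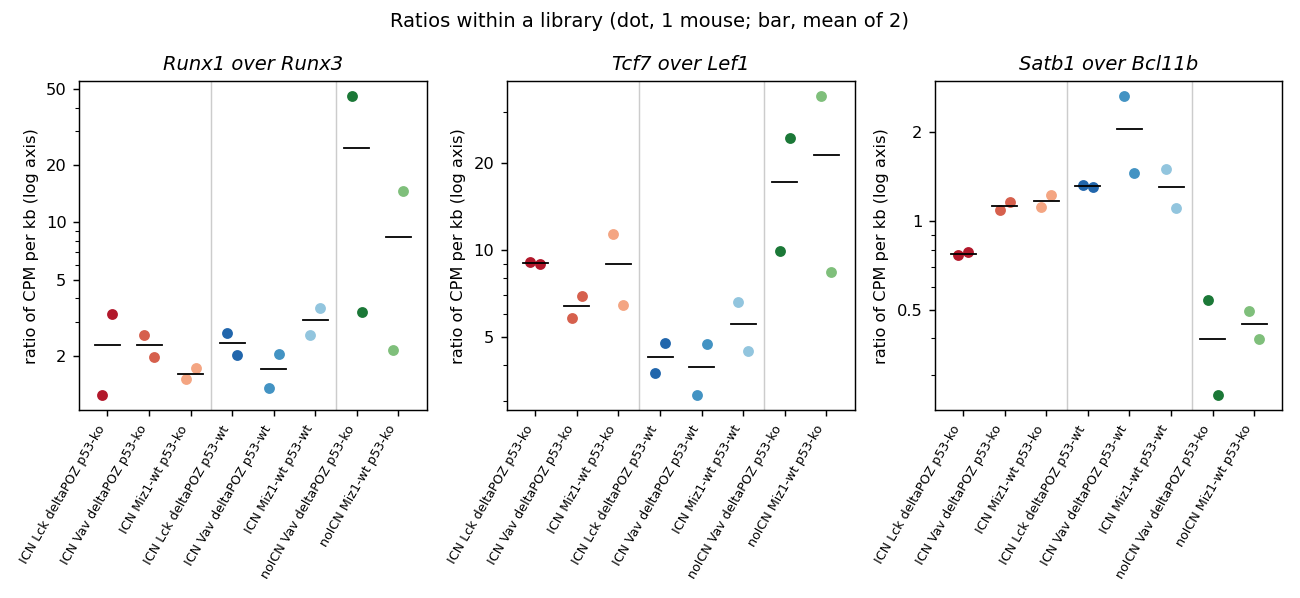
Ratios of Runx1 over Runx3, Tcf7 over Lef1 and Satb1 over Bcl11b within each library (ratio of CPM per kb, log axis), where a dot is 1 mouse and a bar the mean of 2. The Satb1 over Bcl11b ratio is 0.766 or more in all ICN libraries and 0.542 or less in all libraries without ICN, while both other ratios overlap.

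Genes around the 9 factors were read from lists in the same comparison. These lists, too, were chosen with earlier results of these data known, so their counts are a description only. Of 19 tested paralogs and cofactors, 6 rose and 2 fell in ICN leukaemias, with a median log2 fold change of 0.34. Among all genes 12.9% rose and 11.1% fell, so the falls were near the share of all genes. The risers were 5 paralogs and the corepressor Tle4. Bcl11a, the B-lineage and progenitor paralog of Bcl11b, had 13.8 to 23.2 CPM with ICN and 0.0458 to 0.191 CPM without it (log2 fold change 7.48, SE 0.45, edgeR adjusted p = 4.01e-06). Gata1, the erythroid paralog of Gata3, had 34.8 to 84.0 CPM with ICN and 0.0574 to 1.05 CPM without it (7.32, SE 0.76). Gata2, the progenitor paralog, rose too, against only 3 counts over the 4 libraries without ICN. Runx2, the RUNX factor of bone, had 0.727 to 7.21 CPM with ICN and 0.215 to 0.538 CPM without it (2.85, SE 0.58). Tcf7l2, a TCF factor of gut epithelium, rose at a low level (2.63, SE 0.52), as did Tle4, a partner of TCF and RUNX factors (2.48, SE 0.36). The Tox relatives Tox2 (-2.44, SE 0.81) and Tox4 (-0.65, SE 0.19) fell. Gata1 is also an erythroid marker, and Bcl11a is made by B cells, whose 12 markers summed to 46.5 to 252 CPM in the 4 ICN libraries and to 10.6 to 30.8 CPM without ICN. The part of those cells in the rises was not tested.

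Of 23 progenitor and other-lineage genes that commitment normally silences, 15 rose and 0 fell with ICN, against 12.9% and 11.1% of all genes, and the median log2 fold change was 2.80. Their sum was 381 to 787 CPM in the 4 ICN p53-ko libraries of the comparison, against 32.3 to 93.3 CPM without ICN. Tal1, a bHLH oncogene of T-ALL and a factor of red cells, had 131 to 296 CPM with ICN and 0.0143 to 0.137 CPM without it (log2 fold change 12.34, SE 0.64). The others with the smallest p were Bcl11a, Lyl1 (5.62), Lmo2 (5.64), Nfe2 (7.70) and Gfi1b (7.30). Lyl1 and Lmo2 are partners of Tal1, and Nfe2 and Gfi1b serve red cells and megakaryocytes. Of 12 erythroid markers 11 rose in the same libraries, with a median log2 fold change of 11.43, and Slc4a1, the anion exchanger of red cells, alone had 1156 to 4238 CPM with ICN against 0 to 0.183 CPM without it. The part of red cell precursors in these rises was not tested.

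Of 22 other T-lineage transcription factors, 4 rose and 5 fell with ICN, against 12.9% and 11.1% of all genes, and the median log2 fold change was -0.11. Ets1, an ETS factor of lymphocytes, fell by 1.01 on the log2 scale (SE 0.28), and its relative Ets2 fell by 1.85 (SE 0.51). Gfi1, a repressor of T cell precursors, fell by 0.93 (SE 0.25). Tbx21, the factor of type 1 T cells and NK cells, fell by 3.12 (SE 0.84) with overlapping libraries. Klf2 (2.33), which drives T cell egress, rose, as did Zbtb7b (1.96), the CD4 lineage factor, and Egr1 (1.64). Foxp3, the factor of regulatory T cells, rose (2.28) but stayed under 1 CPM in every library of the comparison.

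Of 31 T-lineage genes switched on at or after commitment, 4 rose and 7 fell, with a median log2 fold change of -0.24. Among all genes 12.9% rose and 11.1% fell, so the rises were at the share of all genes. Ccr9, a chemokine receptor of thymocytes, fell by 4.18 on the log2 scale (SE 1.11). Lat (-0.96), Ubash3a (-0.84), Thy1 (-1.07), Lck (-0.65) and Ly6d (-3.30) fell too. S1pr1, the receptor that lets T cells leave the thymus, had 20.9 to 58.9 CPM with ICN and 0.502 to 5.17 CPM without it (log2 fold change 5.07, SE 0.55). The surface proteins Cd2 (1.70), Cd5 (1.61) and Cd6 (0.97) also rose.

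Loss of p53 was read within ICN leukaemias, 6 p53-ko against 6 p53-wt mice averaged over matching Miz1 groups. By edgeR 0 of 9 factors were called, and 0.195% of all genes were (0.0744% lower and 0.12% higher). DESeq2 called 1 factor and 1065 genes in all. By edgeR 2 had an unadjusted p under 0.05, as did 15.5% of all genes. Lef1 and Satb1 had the lowest p-values of the 9, and both were lower without p53.

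Lef1 had 129, 246 and 309.7 CPM as lowest, median and highest of the p53-ko libraries and 339.7, 379 and 524 CPM of the p53-wt libraries. All 6 p53-ko libraries lay below all 6 p53-wt libraries, which held for 1.63% of all genes in this direction. The log2 fold change was -0.82 (SE 0.31, 95% interval -1.50 to -0.13) with an adjusted p of 0.237 by edgeR, so the difference was not called. It was called when genes with low counts were kept in the fit (-0.83). Ordered by group mean, the 3 ICN p53-wt groups came first at 432, 388 and 379 CPM with overlapping ranges, and the 3 ICN p53-ko groups and both groups without ICN followed at 272 to 195 CPM.

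Satb1 had 439, 600.1 and 767 CPM in p53-ko libraries and 706, 1044 and 1290.2 CPM in p53-wt libraries. The groups touched, since 2 of the p53-ko mice, both outside the Lck group, exceeded the lowest p53-wt mouse, and the Lck p53-ko pair was lowest of all groups at 439 and 469 CPM. The log2 fold change was -0.77 (SE 0.23) with an adjusted p of 0.149 by edgeR. DESeq2 called it (-0.76, adjusted p = 0.0353), as did the fit with low genes kept (-0.79).

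Tox had 13.1, 24.9 and 35.6 CPM in p53-ko libraries and 17.7, 44.1 and 56.7 CPM in p53-wt libraries (log2 fold change -0.66, SE 0.34, adjusted p = 0.374 by edgeR). Ikzf1 had 661, 819 and 1024 CPM against 536, 1017 and 1265 CPM in the p53-wt libraries (-0.24, SE 0.18, adjusted p = 0.553). Gata3 overlapped widely, with 8.91, 11.8 and 27.4 CPM in p53-ko and 7.95, 12.8 and 19.7 CPM in p53-wt libraries (0.08, SE 0.24, adjusted p = 0.904). The other 4 factors (Bcl11b, Tcf7, Runx1 and Runx3) also had overlapping libraries. None of the 19 paralogs and cofactors, 22 other T-lineage factors, 31 T-lineage genes or 23 progenitor genes was called in this comparison. The neutrophil markers summed to a median of 2799 CPM in p53-ko and 233 CPM in p53-wt ICN libraries, and their part in the lower Lef1 and Satb1 levels was not tested.

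The Miz1 deltaPOZ allele was compared with Miz1 wt in 3 backgrounds. Averaged over them (10 deltaPOZ against 6 Miz1-wt mice), edgeR called 0 of 9 factors and 0.0172% of all genes. DESeq2 also called 0 of 9, and 134 genes in all. At an unadjusted p under 0.05, no factor was among the 859 genes (4.92%) edgeR counted. The largest log2 differences were 0.32 for Gata3 (95% interval -0.17 to 0.80), -0.31 for Runx1 (-0.83 to 0.21) and -0.28 for Satb1 (-0.73 to 0.17). Runx3 was at -0.20 with an interval of -1.18 to 0.78, and Tox at 0.13 with an interval of -0.55 to 0.80. Each interval held 0, and equal levels are not shown by this.

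The closest approach to a difference in 1 background was Bcl11b in ICN p53-wt leukaemias. It had 230.3 and 354 CPM in deltaPOZ Lck mice and 207 CPM in both deltaPOZ Vav mice, against 363 and 385 CPM in Miz1-wt mice. The 4 deltaPOZ libraries all lay below both Miz1-wt libraries, as in 5.95% of all genes in this direction and 5.45% in the other. The log2 fold change was -0.61 (SE 0.30, edgeR adjusted p = 1), and edgeR called no gene at all there (0%). DESeq2 called none of the 9, and 16 genes in all. At an unadjusted p under 0.05, edgeR counted 0 of 9 and 1.87% of all genes. In ICN p53-ko leukaemias Bcl11b overlapped, at 244 to 275 CPM with deltaPOZ and 189.6 and 267 CPM with Miz1 wt. No factor was free of overlap there, against 8.9% of all genes (4.5% lower and 4.4% higher). None was called by edgeR, which called 0.00572% of all genes, with 3.78% at an unadjusted p under 0.05. DESeq2 called none of the 9 there, and 127 genes in all. The difference of both effects was 0.79 for Bcl11b (SE 0.44, edgeR adjusted p = 1), and 0% of all genes passed, with 2.6% at an unadjusted p under 0.05.

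Without ICN, Tox had 31.0 and 35.6 CPM in deltaPOZ Vav mice and 28.2 and 9.57 CPM in Miz1-wt mice. Ikzf1 had 827 and 1012 CPM in deltaPOZ Vav mice and 674 and 787 CPM in Miz1-wt mice. Both deltaPOZ mice were higher than both Miz1-wt mice for these 2 factors, as in 12.8% of all genes. Neither was called (Tox 0.82, SE 0.59, adjusted p = 0.835, and Ikzf1 0.33, SE 0.31, adjusted p = 0.889 by edgeR), and 0% of all genes were. At an unadjusted p under 0.05 these were 0 of 9 factors and 7.68% of all genes. For Tox the effect of deltaPOZ without ICN exceeded that with ICN by 1.30 on the log2 scale (SE 0.83, edgeR adjusted p = 0.733), which was not called (0% of all genes called, and 6.99% at an unadjusted p under 0.05). Leaving out 1 library moved the Tox value without ICN between 0.22 and 1.81 and the difference between 0.67 and 2.26.

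The Lck and Vav suffixes were compared in ICN deltaPOZ leukaemias, 4 against 4 mice. No factor was called by edgeR or DESeq2, while 0% of all genes were called by edgeR and 22 genes by DESeq2. Only Gata3 had an unadjusted p under 0.05, as did 3.15% of all genes. Gata3 had 10.2, 14.8, 19.7 and 27.4 CPM in Lck mice and 8.91, 10.3, 11.7 and 13.3 CPM in Vav mice. Its 3 highest values were Lck mice, but the fourth Lck mouse lay within the Vav range (log2 fold change 0.71, SE 0.30, edgeR adjusted p = 1). Leaving out 1 library moved it between 0.27 and 0.96. All 12 erythroid, all 12 neutrophil and all 12 macrophage markers had positive log2 fold changes in Lck mice, with medians of 0.44, 1.32 and 0.52 and 0 called by edgeR, and their part in the Gata3 values was not tested. Positive values were also found in 7 of 9 factors, 18 of 22 other T-lineage transcription factors and 18 of 23 progenitor genes. Their medians were 0.18, 0.36 and 0.43, and 0 were called. Negative values were found in 11 of 12 B cell markers. Of all 17470 genes, 8936 were positive. Tox had 13.1 to 56.7 CPM in Lck mice and 17.7 to 36.8 CPM in Vav mice (0.60, SE 0.41, edgeR adjusted p = 1). Satb1 had 439 to 1086 CPM in Lck mice and 704 to 1290.2 CPM in Vav mice (-0.40, SE 0.27, edgeR adjusted p = 1). No factor was free of overlap between Lck and Vav mice, against 2.89% of all genes.

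The factors were last compared with 8876 protein-coding genes by the shape of their pattern over the 16 libraries. Likeness was the mean absolute difference of log2 CPM after each gene was centred on its own mean, so that 0 is an identical pattern. The closest gene to Gata3 was Zmiz1 (0.28), a coactivator that binds Notch1 in mouse T-ALL, followed by Txndc16 and Ppm1h. Bcl11b was closest to Znrf3 (0.22), a ligase that removes Wnt receptors, then AU022252 and Slc38a2. Tcf7 was closest to AU022252 (0.12), then Nsg2 and Exo5, and Lef1 to Tgif1 (0.24), a homeobox repressor, with Slc35g1 also among its 3 nearest. Runx1 was closest to Rai1 (0.24), then Mvk and Rptor, and Ikzf1 to the ETS factor Elf1 (0.17), then Dcaf7 and Slc9a8. Satb1 was closest to Mga (0.20), a Max partner, then Dcaf17 and Zfp60. The nearest genes to Runx3 (Dock5 at 0.36, then Itgav) and to Tox (Peak1 at 0.34, then Rfx7 and Rasa2) were farther away. A distance also depends on how much the factor itself varied, so distances do not rank the matches of different factors. The mean absolute deviation from the factor's own mean was 0.79 for Gata3, 0.58 for Runx3, 0.55 for Tox and only 0.245 for Ikzf1. Among the factors themselves the closest pair was Bcl11b with Tcf7 (0.26), followed by Runx1 with Tcf7 (0.33) and Runx1 with Bcl11b (0.37). Other genes lay closer still: 19 were nearer to Bcl11b than Tcf7 was, and 380 nearer to Tcf7 than Bcl11b was. For Runx1, 36 were nearer than Tcf7 and 142 nearer than Bcl11b. Seen from the other side, 1554 were nearer to Tcf7 than Runx1 was, and 342 nearer to Bcl11b than Runx1 was. These distances describe patterns that share libraries and scaling, and carry no test.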

How the data were processed

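Poly(A) RNA of 16 T-ALL samples was read by RNA-seq from a stranded library kit, per the labels' protocols. The authors deposited raw read counts per Ensembl gene. TopHat2 2.0.10, SAMtools, HTSeq and DESeq are named per the submitters' processing notes, which give no order or settings. The strand setting of the counting is not given in the sources used here. Lines that name no gene were left out; 45.8 to 63.7% of the deposited total per library was set aside as not unique, 14.2 to 21.5% as no feature and 0.138 to 0.331% as ambiguous. Genes held 20.6 to 39.6%.

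Names, positions and exon lengths came from GENCODE M21 (GRCm38), which named 40340 of 41214 genes, and promoters from RefSeq (GRCm38.p6). Counts were scaled by TMM, filtered by expression in the groups (17470 genes kept) and fitted in edgeR 4.0.16 (R 4.3.3) with 8 group means, leaving 8 residual degrees of freedom. Each contrast had a quasi-likelihood F test, adjusted by Benjamini-Hochberg over all 17470 genes at 0.05. Alternatives were DESeq2 1.42.0, upper-quartile factors, no filter, the compared groups alone, each library left out, and scaling to T cell markers. Samples were grouped by their titles and characteristics, and replicate numbers only name libraries.

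The 9 factors and all gene lists were chosen with earlier results of these data known. From each list, up to 6 called genes per direction with the smallest p were named, beside all 9 factors, and the nearest genes by pattern; some of these are not reported here.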

Additional observations from a re-analysis of the deposited data

How the results depend on the processing

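The 4 factors called in the ICN comparison were called under DESeq2, upper-quartile factors, no filter, the compared groups alone and T cell marker scaling. Leaving out 1 library put Gata3 at -2.16 to -1.87, Bcl11b at -1.78 to -1.22, Runx1 at -2.11 to -1.22 and Tcf7 at -1.02 to -0.71. The factors called were not the same in each of these fits. Without replicate 2 of deltaPOZ Vav without ICN, Tcf7 was lost and Runx3 stood at 1.47, higher with ICN. Uncalled factors changed sign: Lef1 to -0.17 and Ikzf1 to -0.23 under T cell marker scaling (added after seeing the data), which moved the median of all genes to -0.36, and Satb1 to 0.0031 with no filter. Over the fits that left out 1 library, Lef1 ran between -0.23 and 0.74, Runx3 between -0.55 and 1.47, Ikzf1 between -0.041 and 0.15, Satb1 between -0.29 and 0.30 and Tox between -0.36 and 0.44. The cause was not tested. For p53, 2 factors were called with no filter and 1 by DESeq2, against 0; leaving out 1 library gave 0, with Gata3 at -0.21 to 0.24. For deltaPOZ the same fits gave Runx1 at -0.52 to 0.072, Runx3 at -1.21 to 0.10 and Tox at -0.073 to 0.46, with 0 called.

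Counts of called genes moved with the filter on low counts and with the tool. For p53, 34 genes were called, against 1588 with no filter, 1065 by DESeq2, 149 with the compared groups alone and 2 to 132 with 1 library left out. For ICN, 4194 were called, against 2360 with the compared groups alone and 2524 to 4643 with 1 library left out. For the mean deltaPOZ effect, 3 were called, against 502 with no filter, 134 by DESeq2, 0 under T cell marker scaling and 0 to 20 with 1 library left out. With no filter, DESeq2 and 1 library left out, counts were 211, 16 and 0 to 1 for deltaPOZ in ICN p53 wt (0 called), 464, 127 and 0 to 3 in ICN p53 ko (1 called, 2 with the compared groups alone), and 746, 241 and 0 to 108 without ICN (0 called, 8 with upper-quartile factors). They were 378, 30 and 0 for the difference by p53, 613, 84 and 0 to 12 for the difference by ICN, and 277, 22 and 0 to 1 for Lck against Vav (0 called in each).

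No paired analysis was possible because the labels give no replicate numbers that join mice of different groups. With 2 mice per group, wide intervals limit Runx3, Tox and Lef1 most; Gata3, Runx3 and Tox also had the lowest levels.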
